A study of Homo sapiens with 18 samples.

Results

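The 31 genes described here encode proteins of DNA replication and S phase, the part of the cell cycle in which the genome is copied. They were taken as a named list and not by any measured value, although earlier results of these data were known when it was chosen. They are 31 of the 58721 genes in the count table. All 31 passed the filter on low counts that left 21060 genes for testing, and the lowest count of any of them in any library was 1521. RNA was sequenced from A375, an established human melanoma cell line, in 6 groups of 3 libraries. Both groups of TADA2B knockout cells that also overexpressed SOX10 were made with guide RNAs 1 and 2, and the knockout cells without SOX10 overexpression with the same guides. Control cells had a GFP guide, with and without SOX10 overexpression, and the labels call the genotype of those without it WT. TADA2B encodes a subunit of the SAGA coactivator complex, which acetylates histones, and SOX10 is a lineage transcription factor of melanocytes and other neural crest derivatives. The groups allow the effect of TADA2B loss on gene expression, and the effect of SOX10 in cells with and without TADA2B knockout, to be read. The labels do not say whether a knockout line was 1 clone or a pool, how SOX10 was delivered, or whether the 3 libraries of a group came from separate cultures, so p-values measure only the spread between these libraries, which may be technical.

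Replication begins when ORC, CDC6 and CDT1 load the MCM2-7 helicase onto origins, a step called licensing. Cyclin E with its kinase then drives S phase entry, CDC45 and the GINS complex join MCM2-7 to form the active helicase, and polymerases, the PCNA clamp and its loader copy the strands while new nucleotides and histones are supplied. Many of these genes are transcribed in a wave at the G1/S boundary by E2F transcription factors, which the retinoblastoma protein holds back until cyclin-dependent kinases release them.

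Promoter sequence is one feature that the choice of the genes did not use. Windows from 250 bases before to 50 bases after the transcription start site were taken from RefSeq (GRCh38.p14) and were found for 28 of the 31 genes, in 38 windows. They were searched on both strands for the words TTTCCCGC, TTTCGCGC, TTTGCCGC and TTTGGCGC, forms of the E2F recognition sequence. A match stood in 15 of the 28 genes (53.6%) and in 1090 of all 27305 genes with a window (3.99%), and in 16 of 38 windows (42.1%) against 3.31% of all 35116 windows. The pentamer CCAAT was present in 19 of the 28 genes (67.9%) and 39.7% of all genes, and the words TTTGAA and TTCGAA, forms of the cell cycle homology region, in 4 of 28 (14.3%) and 19.5%. Of the 23 E2F matches in member windows, 15 lay within 65 bases of the start site. A match is a description of these letters and not evidence of a bound site.

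To show what these promoters hold, 8 windows follow. The first 6 belong to genes that hold a match and whose changes are described below, and the last pair to genes without one. They are written 5′ to 3′ on the strand of the gene, with the matches in capitals.
E2F1, chr20:33686336-33686635, minus strand: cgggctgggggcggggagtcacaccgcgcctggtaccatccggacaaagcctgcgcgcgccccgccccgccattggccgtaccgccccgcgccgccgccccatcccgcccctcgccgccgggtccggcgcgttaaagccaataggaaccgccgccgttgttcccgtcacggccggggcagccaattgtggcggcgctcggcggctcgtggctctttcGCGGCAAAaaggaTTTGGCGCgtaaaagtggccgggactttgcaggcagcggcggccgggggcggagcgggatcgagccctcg
MCM6, chr2:135876394-135876693, minus strand: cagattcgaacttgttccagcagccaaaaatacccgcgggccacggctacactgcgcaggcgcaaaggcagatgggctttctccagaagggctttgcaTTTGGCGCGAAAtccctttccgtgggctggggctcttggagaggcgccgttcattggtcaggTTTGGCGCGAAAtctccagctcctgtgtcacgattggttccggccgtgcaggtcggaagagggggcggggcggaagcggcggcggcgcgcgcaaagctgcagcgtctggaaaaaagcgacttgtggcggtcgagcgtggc
MCM3, chr6:52284693-52284992, minus strand: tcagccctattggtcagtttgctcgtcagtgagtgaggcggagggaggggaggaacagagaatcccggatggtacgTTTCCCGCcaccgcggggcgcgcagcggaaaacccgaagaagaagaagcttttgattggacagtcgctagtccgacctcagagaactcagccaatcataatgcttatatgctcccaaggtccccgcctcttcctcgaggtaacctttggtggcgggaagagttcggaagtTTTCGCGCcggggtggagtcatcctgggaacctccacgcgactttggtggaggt
GINS2, chr16:85688905-85689204, minus strand: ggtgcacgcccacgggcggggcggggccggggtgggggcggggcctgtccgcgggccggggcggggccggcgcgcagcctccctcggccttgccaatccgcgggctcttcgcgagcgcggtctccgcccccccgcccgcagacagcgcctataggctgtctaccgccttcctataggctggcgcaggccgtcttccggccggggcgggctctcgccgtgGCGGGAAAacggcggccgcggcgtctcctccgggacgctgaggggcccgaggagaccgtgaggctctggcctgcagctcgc
UHRF1, chr19:4909251-4909550, plus strand: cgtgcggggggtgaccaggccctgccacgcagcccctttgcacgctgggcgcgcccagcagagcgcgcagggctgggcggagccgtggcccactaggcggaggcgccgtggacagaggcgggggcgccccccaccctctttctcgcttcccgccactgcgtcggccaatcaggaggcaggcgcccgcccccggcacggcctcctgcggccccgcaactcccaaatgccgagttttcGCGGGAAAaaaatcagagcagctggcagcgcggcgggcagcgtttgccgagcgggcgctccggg
TYMS, chr18:657403-657702, plus strand: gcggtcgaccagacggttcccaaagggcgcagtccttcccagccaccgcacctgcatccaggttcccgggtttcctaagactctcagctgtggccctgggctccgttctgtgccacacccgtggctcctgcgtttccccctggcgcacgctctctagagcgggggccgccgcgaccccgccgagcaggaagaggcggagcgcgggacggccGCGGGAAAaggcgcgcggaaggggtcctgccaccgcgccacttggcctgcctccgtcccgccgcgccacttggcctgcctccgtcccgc
CCNE1, chr19:29811741-29812040, plus strand: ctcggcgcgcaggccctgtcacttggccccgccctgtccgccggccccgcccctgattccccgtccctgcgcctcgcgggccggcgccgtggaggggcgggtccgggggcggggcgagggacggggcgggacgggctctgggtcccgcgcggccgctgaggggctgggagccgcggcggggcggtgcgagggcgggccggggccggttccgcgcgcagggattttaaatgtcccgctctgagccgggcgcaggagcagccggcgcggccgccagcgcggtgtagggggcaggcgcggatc
FEN1, chr11:61792661-61792960, plus strand: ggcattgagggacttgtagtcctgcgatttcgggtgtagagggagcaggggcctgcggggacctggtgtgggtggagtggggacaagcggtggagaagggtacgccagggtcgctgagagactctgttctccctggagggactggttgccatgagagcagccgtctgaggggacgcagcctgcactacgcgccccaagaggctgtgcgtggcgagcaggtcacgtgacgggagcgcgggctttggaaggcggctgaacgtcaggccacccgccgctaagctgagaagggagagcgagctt
The MCM6 window holds 4 matches in 2 runs, because in each run a forward TTTGGCGC shares its last 4 bases with a reverse GCGCGAAA. E2F1 holds 2 matches, between 33 and 13 bases before its own start site, and UHRF1 has a match from 14 to 7 bases before its start site in the window shown and another in a second window. The CCNE1 and FEN1 windows held none of these words.

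Library totals ran from 58573910 to 79874237 counts. Levels are given as CPM, counts scaled to a common library size, with library sizes adjusted by TMM, a scaling that assumes most genes are unchanged, and each comparison is also given with plain library-size scaling. TMM factors were 0.930 to 1.05 and were below 1 in all 6 libraries of control origin, so the choice of scaling shifts knockout against control and hardly touches SOX10 against no SOX10. Relative to TMM, library-size scaling shifted the median log2 change over 21060 genes by 0.156 for knockout against control, by 0.0035 for SOX10 in control cells and by −0.0091 for SOX10 in knockout cells. Guide 2 replicate 2 without SOX10 stood apart from its group, with a chi-square per degree of freedom of up to 11.8. TADA2B itself averaged 26.0 ± 0.401 CPM with guide 1 and 28.8 ± 1.37 CPM with guide 2, against 32.5 ± 0.318 CPM in control cells (SD, n = 3 each). Its log2 change with TMM was −0.32 (SE 0.047) with guide 1 and −0.17 (SE 0.046, adjusted p = 0.00136) with guide 2, and with library-size scaling −0.17 (SE 0.047, adjusted p = 0.00181) and −0.01 (SE 0.046, adjusted p = 0.853). The target transcript was thus not called lower in guide 2 cells under that scaling, and the word knockout is used here as the labels give it. SOX10 was at 291, 246 and 452 CPM in guide 1, guide 2 and control cells that overexpressed it, and at 83.6, 43.4 and 354 CPM in the same cells without. The transcript total therefore stayed below the control level in the overexpressing knockout lines. The 12 melanocyte and melanoma markers summed to 260 to 302 CPM in knockout cells and 535 to 563 CPM in control cells, and to 459 to 565 CPM in knockout with SOX10 and 893 to 895 CPM in control with SOX10. Those sums include SOX10 itself. The other 11 summed to 214 to 229 CPM in knockout cells and 195 to 199 CPM in control cells, and to 218 to 264 CPM in knockout with SOX10 and 440 to 445 CPM in control with SOX10. Of the 10 markers that passed the filter, 4 were higher and 6 lower in the knockout, with the lineage regulator MITF at 1.15 (SE 0.034), TYRP1 at 2.93 (SE 0.34) and PMEL at 1.01 (SE 0.23), but S100B at −2.83 (SE 0.081) and DCT at −3.89 (SE 0.21). Of the melanocyte-defining genes, TYR was at 0 to 4 counts in every library, and group means of MLANA and PMEL were only 0.411 to 1.54 CPM. TYRP1 had only 4 to 8 counts in control libraries without SOX10, and DCT only 2 to 8 in knockout libraries without SOX10. The changes of TYRP1 and DCT thus rest on few counts on that side. Marker sums of other cell types moved too: the 6 fibroblast markers stood at 29.6 to 36.0 CPM in knockout and 4.87 to 6.55 CPM in control, the 6 epithelial ones at 225 to 248 CPM and 164 to 165 CPM. LUM and COL1A1 made up most of the fibroblast sum, at 3.11 (SE 0.073) and 3.12 (SE 0.13), while PDGFRA changed by −0.91 (SE 0.17). KRT18 made up nearly all of the epithelial sum, at 0.55 (SE 0.030), while KRT14 changed by −3.03 (SE 0.12). The 6 leukocyte markers were between 5.29 and 21.7 CPM and the 4 endothelial ones between 1.89 and 35.2 CPM over all groups, both highest in knockout with SOX10. Their part in the results below was not tested.

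Per kilobase of exon sequence, PCNA was the most abundant member in control cells at 273 ± 3.08 CPM per kb, followed by MCM7 at 121 ± 1.38 and RRM2 at 105 ± 2.46. POLE was the lowest at 5.41 ± 0.180 CPM per kb, next to BRIP1 at 6.19 ± 0.167 and CHAF1B at 6.24 ± 0.0473, and BRIP1 and CHAF1B did not differ beyond their spread. The exons of some members are shared with other genes, and the strand setting of the counting is not given in the sources used here. ENOSF1 on the opposite strand covers 39.2% of the TYMS exon bases, INTS8 37.0% of those of CCNE2, and the antisense transcript AC023593.1 22.7% of those of MCM2. On the same strand, AC007240.1 covers 20.2% of RRM2 and AC117378.1 14.9% of PRIM1. Values of these 5 genes are therefore uncertain, because how reads on the shared bases were assigned is not known.

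**Figure D1:**
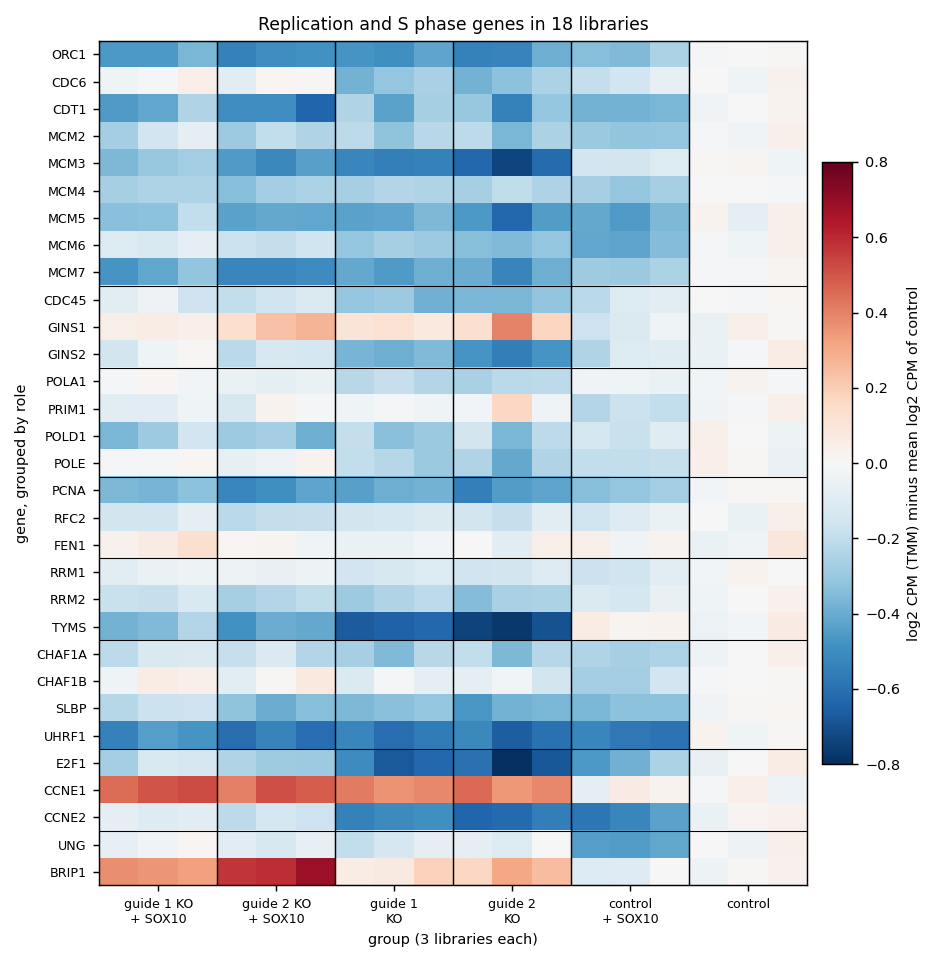
Level of each of the 31 genes (rows, by role) in each of the 18 libraries (columns, by group), as log2 CPM with TMM scaling minus the gene's mean over the control libraries. Most rows are lower than control both in knockout cells and in control cells given SOX10, whereas CCNE1 and BRIP1 are higher in knockout cells.

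Most replication genes were modestly lower in TADA2B knockout cells. Over both guides, 25 of 31 were lower and 3 were higher than in control cells, and 3 did not pass the test (edgeR's quasi-likelihood test with Benjamini-Hochberg adjustment over 21060 genes). The shares of all genes tested that were called were 29.5% lower and 28.6% higher. Their median log2 change was −0.27, against −0.0090 for all genes. With library-size scaling 21 members were lower and 5 higher, against 16.8% and 43.3% of all genes, and the medians were −0.11 for members and 0.15 for all genes. Calls made under both scalings were 21 lower and 3 higher, and no member was called in opposite directions. In the 6 knockout libraries, 25 members lay below all 3 control libraries, 3 lay above and 3 overlapped, and with library-size scaling 19, 5 and 7. The share of all genes that separated in this way is not given here, so these counts only describe the members. In these bulk samples, fewer cells in S phase and less transcript per cell cannot be told apart.

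All 9 licensing genes fell, under both scalings. MCM3, a subunit of the helicase ring, fell furthest among them: it had 149, 146 and 147 CPM with guide 1 and 138, 128 and 139 CPM with guide 2, against 215, 217 and 208 CPM in control cells. Every knockout library lay far below every control library, and the log2 change was −0.60 (SE 0.026, adjusted p = 5.87e-23), or −0.44 with library-size scaling. ORC1, the largest subunit of the origin recognition complex, changed by −0.47 (SE 0.031), MCM5 by −0.46 (SE 0.035) and MCM7 by −0.43 (SE 0.027). The smallest falls were those of MCM4 at −0.24 (SE 0.022) and MCM2 at −0.26 (SE 0.035), so that the 6 subunits of 1 hexamer did not move by the same amount. The licensing factors CDC6 and CDT1 changed by −0.32 (SE 0.030) and −0.34 (SE 0.051).

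Of the 3 genes of helicase activation, CDC45 and GINS2 fell and GINS1 rose, although GINS1 and GINS2 encode subunits of the same complex. GINS2 had 45.8, 45.3 and 46.4 CPM with guide 1 and 42.7, 40.5 and 42.8 CPM with guide 2, against 57.1, 59.1 and 62.0 CPM in control cells. The groups did not overlap, and the log2 change was −0.44 (SE 0.037, adjusted p = 1.09e-13). GINS1 had 121, 123 and 119 CPM with guide 1 and 123, 148 and 127 CPM with guide 2, against 109, 116 and 114 CPM in control cells. Its highest value came from guide 2 replicate 2, the library that stood apart, and its change of 0.17 (SE 0.047, adjusted p = 0.00464) was 0.12 (adjusted p = 0.000317) without that library. With guide 1 alone the GINS1 change of 0.10 did not pass under TMM scaling, and with library-size scaling it was 0.25 and passed.

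At the fork, PCNA, the sliding clamp that holds polymerases on DNA, changed by −0.44 (SE 0.025, adjusted p = 1.04e-18). It had 298, 306 and 310.1 CPM with guide 1 and 276, 296 and 301 CPM with guide 2, against 397, 405 and 405 CPM in control cells, with no overlap. POLA1, POLD1 and POLE, the catalytic subunits of the 3 replicative polymerases, changed by −0.22 (SE 0.025), −0.25 (SE 0.043) and −0.27 (SE 0.032), and POLD1 was at −0.10, not called, with library-size scaling. The clamp loader subunit RFC2 fell by 0.14 (SE 0.028) with TMM and stood at 0.02, not called, with library-size scaling. PRIM1, the catalytic primase subunit, and FEN1, the nuclease that trims Okazaki fragments, had log2 changes of 0.0047 (SE 0.041) and −0.03 (SE 0.030) that did not pass. With library-size scaling both were called higher, at 0.16 and 0.13.

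Nucleotide supply was led by TYMS, thymidylate synthase, which makes dTMP. TYMS had 65.1, 66.0 and 66.8 CPM with guide 1 and 61.8, 60.4 and 63.8 CPM with guide 2, against 99.8, 102 and 108 CPM in control cells. This was the largest fall of any member, at −0.69 (SE 0.031, adjusted p = 1.51e-22), or −0.53 with library-size scaling. ENOSF1, which overlaps it on the other strand, changed by 0.21 (SE 0.051, adjusted p = 0.000597), opposite to TYMS. The subunits of ribonucleotide reductase, which makes deoxyribonucleotides, changed less, RRM2 by −0.27 (SE 0.025) and RRM1 by −0.13 (SE 0.023). RRM1 was at 0.02 and not called with library-size scaling.

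Among genes of chromatin and histone supply, UHRF1, which recruits DNA methyltransferase to newly copied DNA, fell most. It had 188, 177 and 183 CPM with guide 1 and 188, 171 and 178 CPM with guide 2, against 275, 263 and 272 CPM in control cells, a log2 change of −0.58 (SE 0.028, adjusted p = 6.09e-21). SLBP, which binds the stem-loop of histone mRNAs, changed by −0.37 (SE 0.026). The large subunit of the histone chaperone CAF-1, CHAF1A, changed by −0.27 (SE 0.033), while CHAF1B, another subunit of the same chaperone, was at −0.07 (SE 0.041) and did not pass. Of the pair of repair genes, UNG, the uracil-DNA glycosylase, fell by 0.10 (SE 0.028) with TMM and was at 0.06 and not called with library-size scaling. BRIP1, a helicase of the Fanconi anaemia pathway, rose: it had 51.6, 52.1 and 56.2 CPM with guide 1 and 55.4, 61.4 and 58.8 CPM with guide 2, against 48.0, 49.9 and 50.6 CPM in control cells. The groups lay close but did not overlap, and the change was 0.17 (SE 0.036, adjusted p = 6.34e-05), or 0.33 with library-size scaling.

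The S phase entry genes split. E2F1, the transcription factor that activates many of the other members, had 30.0, 26.7 and 27.6 CPM with guide 1 and 28.1, 22.4 and 26.7 CPM with guide 2, against 40.8, 42.6 and 44.4 CPM in control cells. It changed by −0.66 (SE 0.054, adjusted p = 2.37e-11), and by −0.62 without guide 2 replicate 2, its lowest library. CCNE2, the gene of cyclin E2, had 25.0, 25.5 and 25.9 CPM with guide 1 and 23.4, 23.6 and 24.8 CPM with guide 2, against 35.1, 36.8 and 37.1 CPM in control cells, a change of −0.56 (SE 0.038, adjusted p = 2.3e-16). INTS8, which shares exon bases with CCNE2, changed by 0.02 (SE 0.029, adjusted p = 0.526). CCNE1, the gene of cyclin E1, moved the other way. It had 32.3, 31.0 and 31.6 CPM with guide 1 and 33.1, 30.7 and 31.5 CPM with guide 2, against 24.0, 25.1 and 23.4 CPM in control cells, a change of 0.39 (SE 0.042, adjusted p = 9.39e-11) and the largest rise of any member with TMM.

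**Figure D2:**
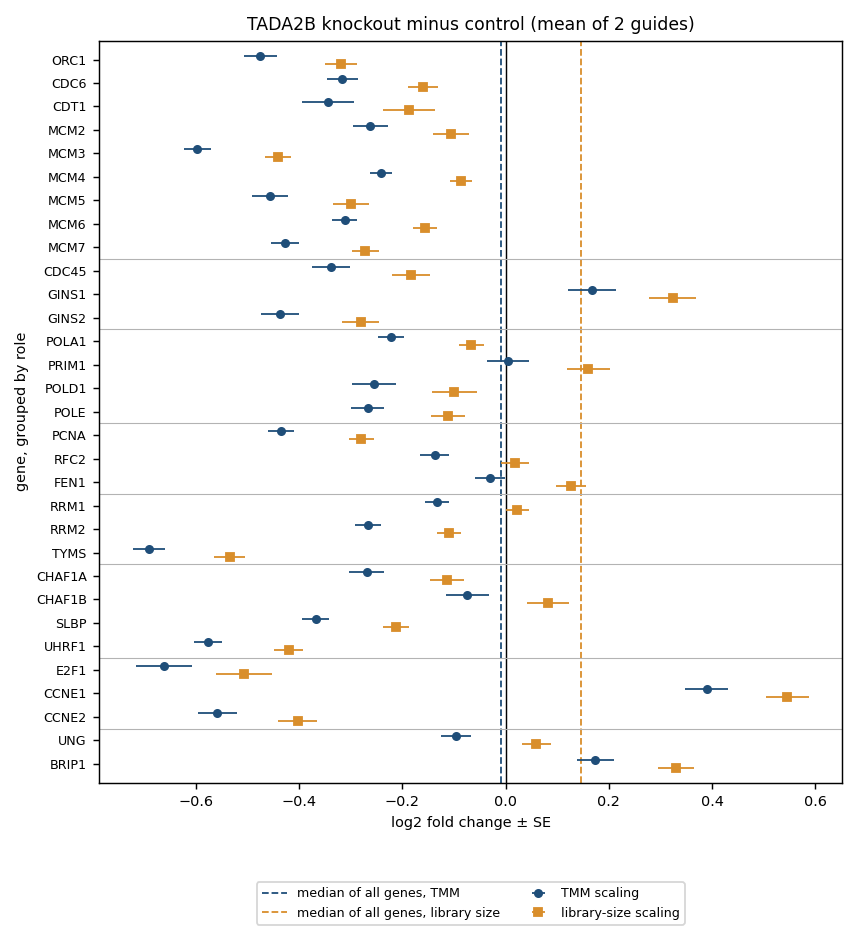
Log2 change of each of the 31 genes in knockout over control cells with TMM scaling (circles) and with library-size scaling (squares). Bars are standard errors, and symbols are filled whether or not a gene passed the test. Dashed vertical lines mark the median of all genes under each scaling. The whole set shifts to the right with library-size scaling together with the median of all genes.

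Because the cyclin E genes moved in opposite directions, the ratio of CCNE1 to CCNE2 counts was also read in each library, a quantity that no scaling affects and that was chosen after the values were seen. It was 1.22 to 1.29 with guide 1 and 1.27 to 1.42 with guide 2, against 0.631 to 0.686 in control cells. With SOX10 it was 0.955 to 1.02 with guide 1 and 1.02 to 1.05 with guide 2, against 0.912 to 1.00 in control cells. SOX10 overexpression thus went with a lower ratio in knockout cells and a higher ratio in control cells, and the 4 sets of libraries overlapped only between the knockout and control cells that overexpressed SOX10.

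Most of these calls were made with each guide. Guide 1 lowered 25 members and raised 2, against 26.4% and 26.2% of all genes, and guide 2 lowered 24 and raised 3, against 28.1% and 27.9%. With library-size scaling the counts were 22 lower and 5 higher for guide 1, against 14.7% and 39.8% of all genes, and 21 lower and 6 higher for guide 2, against 16.5% and 42.1%. Both comparisons use the same control libraries, so their likeness is not independent. With TMM the guides' calls differed in a pair of members: UNG was called lower with guide 1, at −0.13 (SE 0.033), and not with guide 2, at −0.06 (SE 0.033, adjusted p = 0.115), and GINS1 was called higher with guide 2 only, at 0.24 (SE 0.053). With library-size scaling UNG was called higher with guide 2, at 0.10, and POLD1 lower with guide 1, at −0.12, each with the other guide not called. Set directly against each other, guide 2 differed from guide 1 in 2 members, 1 higher and 1 lower, against 2.65% and 6.09% of all genes. BRIP1 was 0.13 higher (SE 0.041, adjusted p = 0.0304) and MCM3 was 0.12 lower (SE 0.031, adjusted p = 0.00553). The same pair was called with library-size scaling, against 3.87% higher and 5.30% lower among all genes. The BRIP1 call was lost without guide 1 replicate 1 or 2 or guide 2 replicate 2 or 3, the MCM3 call without guide 2 replicate 2, and without guide 2 replicate 1 the count of higher members was 2. In cells with SOX10, guide 2 was higher than guide 1 in 1 member and lower in 7, against 5.05% and 7.01% of all genes, with BRIP1 at 0.27 (SE 0.040, adjusted p = 3.22e-06) and MCM3 at −0.15 (SE 0.030, adjusted p = 0.00029) again. With library-size scaling 2 were higher and 4 lower, against 7.41% and 5.42% of all genes, and leaving out 1 library gave 1 to 2 higher and 3 to 10 lower: 3 and 10 without guide 1 with SOX10 replicates 3 and 1, and 4 without guide 2 with SOX10 replicate 1.

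In control cells, SOX10 overexpression lowered 25 of 31 members and raised none, against 17.2% lower and 17.3% higher among all genes. The median log2 change was −0.20 for members and −0.0078 for all genes, and library-size scaling gave the same 25 calls, against 16.7% lower and 17.5% higher among all genes. All 9 licensing genes and all 4 genes of chromatin and histone supply fell. UHRF1 had 188, 181 and 179 CPM with SOX10, against 275, 263 and 272 CPM without, a change of −0.56 (SE 0.033, adjusted p = 1.08e-17). CCNE2 had 24.4, 25.3 and 27.0 CPM with SOX10, against 35.1, 36.8 and 37.1 CPM without, a change of −0.51 (SE 0.045, adjusted p = 1.59e-12). Both sets lay wholly below control. INTS8, which shares exon bases with CCNE2, fell too, by 0.18 (SE 0.033, adjusted p = 2.29e-05). UNG had 96.2, 95.8 and 98.2 CPM with SOX10, against 131, 127 and 135 CPM without, a change of −0.44 (SE 0.033, adjusted p = 2.07e-14). MCM5 changed by −0.41 (SE 0.041), MCM6 by −0.39 (SE 0.029), CDT1 by −0.37 (SE 0.059), E2F1 by −0.36 (SE 0.063) and SLBP by −0.34 (SE 0.030). The 6 members that did not pass were GINS1, POLA1, FEN1, TYMS, CCNE1 and BRIP1, with changes between −0.10 and 0.03. TYMS, the most lowered gene in the knockout, was among them: it had 107, 105 and 105 CPM with SOX10, against 99.8, 102 and 108 CPM without (0.03, SE 0.036, adjusted p = 0.509).

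In knockout cells, SOX10 overexpression raised 19 members and lowered 1, against 28.1% higher and 28.1% lower among all genes, and 11 did not pass. The median log2 change was 0.08, against 0.00065 for all genes. With library-size scaling 18 were higher and 2 lower, against 27.1% and 29.3% of all genes. The rises were small, and the 12 knockout libraries with and without SOX10 separated completely in 12 members with TMM and 10 with library-size scaling. No share of all genes is given here for such separation either.

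**Figure D3:**
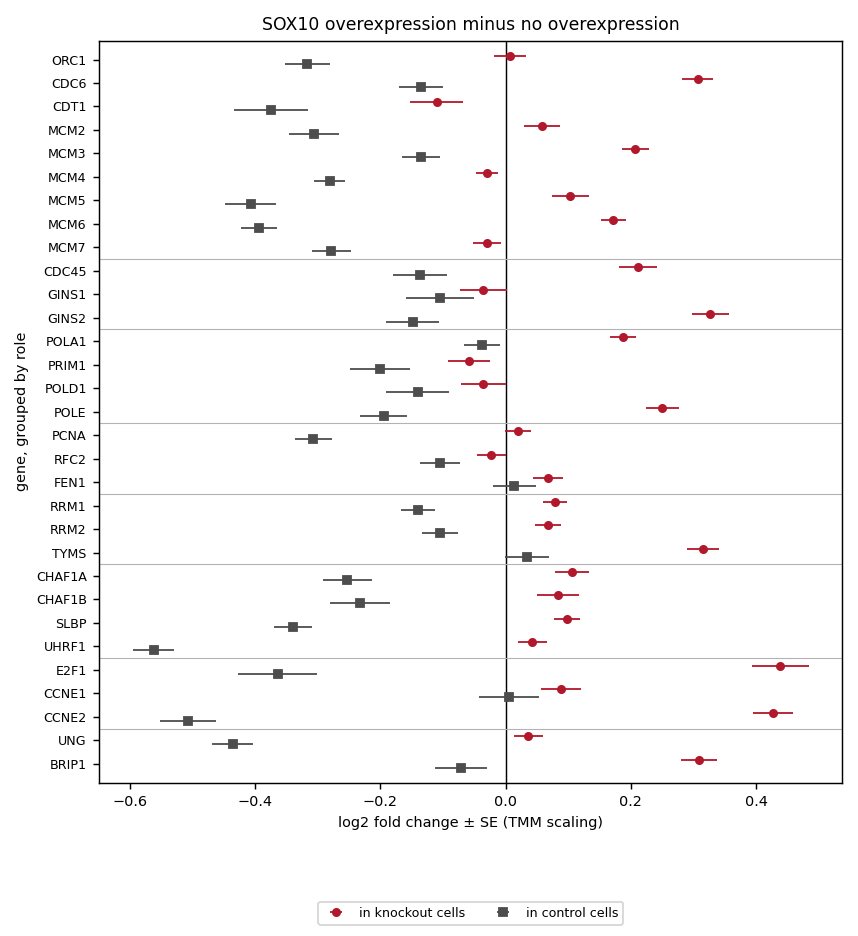
Log2 change with SOX10 overexpression in knockout cells and in control cells for each of the 31 genes, with TMM scaling; bars are standard errors. In control cells the values lie at or below 0 for nearly all genes, and in knockout cells E2F1 and CCNE2 stand highest, at 0.44 and 0.43.

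All 3 S phase entry genes rose with SOX10 in knockout cells. E2F1 had 35.2, 39.1 and 38.8 CPM with guide 1 and SOX10 and 36.0, 35.0 and 34.9 CPM with guide 2 and SOX10, against 30.0, 26.7 and 27.6 CPM with guide 1 alone and 28.1, 22.4 and 26.7 CPM with guide 2 alone. The sets did not overlap, and the change was 0.44 (SE 0.045, adjusted p = 2.69e-09). CCNE2 had 34.5, 33.8 and 34.2 CPM with guide 1 and SOX10 and 31.5, 32.9 and 32.4 CPM with guide 2 and SOX10, against 23.4 to 25.9 CPM in the knockout libraries without SOX10, a change of 0.43 (SE 0.032, adjusted p = 3.02e-15). INTS8, its overlapping partner, fell by 0.35 (SE 0.023, adjusted p = 1.1e-16). CCNE1 rose by 0.09 (SE 0.032, adjusted p = 0.0189), a change that passed in neither guide alone.

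Among the other roles, GINS2 rose by 0.33 (SE 0.030), TYMS by 0.32 (SE 0.026), CDC6 by 0.31 (SE 0.025), BRIP1 by 0.31 (SE 0.029), POLE by 0.25 (SE 0.026) and MCM3 and CDC45 by 0.21 each (SE 0.022 and 0.030). TYMS had 79.5, 80.9 and 87.8 CPM with guide 1 and SOX10 and 73.7, 78.3 and 77.7 CPM with guide 2 and SOX10, against 60.4 to 66.8 CPM in knockout libraries without SOX10. All 6 values lay above the knockout and below the control libraries. MCM2-7 were uneven: MCM3, MCM5 and MCM6 rose, while MCM2 at 0.06, MCM4 at −0.03 and MCM7 at −0.03 did not pass. UHRF1 and PCNA, both clearly lower in the knockout, had changes of 0.04 (SE 0.023, adjusted p = 0.12) and 0.02 (SE 0.021, adjusted p = 0.444). CDT1 was the 1 member called lower, at −0.11 (SE 0.042, adjusted p = 0.0296), and with library-size scaling MCM4 joined it at −0.04. The CDT1 call was lost when only the compared groups were fitted and, with no member then called lower, when guide 1 replicate 1 or 3, guide 2 replicate 1 or 3, guide 1 with SOX10 replicate 1 or 2, or guide 2 with SOX10 replicate 3 was left out. Without guide 2 replicate 2 the count was 2. By guide, in contrasts added after the data were seen, SOX10 raised 18 members and lowered none in guide 1 cells, against 22.0% and 21.7% of all genes, or 17 and none with library-size scaling, against 20.7% and 23.4%. In guide 2 cells it raised 12 and lowered 2, CDT1 and MCM7, against 24.6% and 24.0%, or 12 and 3 with library-size scaling, against 24.3% and 24.4%. The 2 lowered became 0 without guide 2 replicate 1 or 3 and 1 without several other libraries. With TMM the 12 raised with guide 2 were all raised with guide 1, and with library-size scaling 11 of the 12 were, RRM1 at 0.05 (adjusted p = 0.0888) with guide 1 being the exception. These comparisons share no library, and the share of all genes raised with both guides is not given here.

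The difference between the SOX10 effects was itself tested as the interaction of knockout and SOX10. The SOX10 effect was more positive in knockout than in control cells for 25 of 31 members and more negative for none, against 18.1% and 15.1% of all genes, and library-size scaling called the same 25, against 17.0% and 16.3%. All 31 values were above 0, with a median of 0.33 against 0.02 for all genes. CCNE2 had the largest difference at 0.93 (SE 0.055, adjusted p = 1.05e-17), followed by E2F1 at 0.80 (SE 0.078, adjusted p = 2.95e-09), UHRF1 at 0.60 (SE 0.040, adjusted p = 1.01e-15), MCM6 at 0.57 (SE 0.035, adjusted p = 7.3e-17) and MCM5 at 0.51 (SE 0.050, adjusted p = 1.82e-10). All 9 licensing genes, all 4 chromatin genes, all 3 genes of nucleotide supply and both repair genes were among the 25. GINS1, PRIM1, POLD1, RFC2, FEN1 and CCNE1 were not called, with values between 0.05 and 0.14. Across the comparisons of SOX10 in control and in knockout cells, which share no library, 14 members were called lower in control and higher in knockout cells. These were CCNE2, CDC45, CDC6, CHAF1A, CHAF1B, E2F1, GINS2, MCM3, MCM5, MCM6, POLE, RRM1, RRM2 and SLBP, and with library-size scaling 13, without CHAF1B. The share of all genes with this pair of calls is not given here. For UHRF1, by contrast, the interaction came from a fall in control cells with no called change in knockout cells, and the same held for UNG, PCNA, ORC1, MCM2, MCM4 and MCM7 with TMM.

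**Figure D4:**
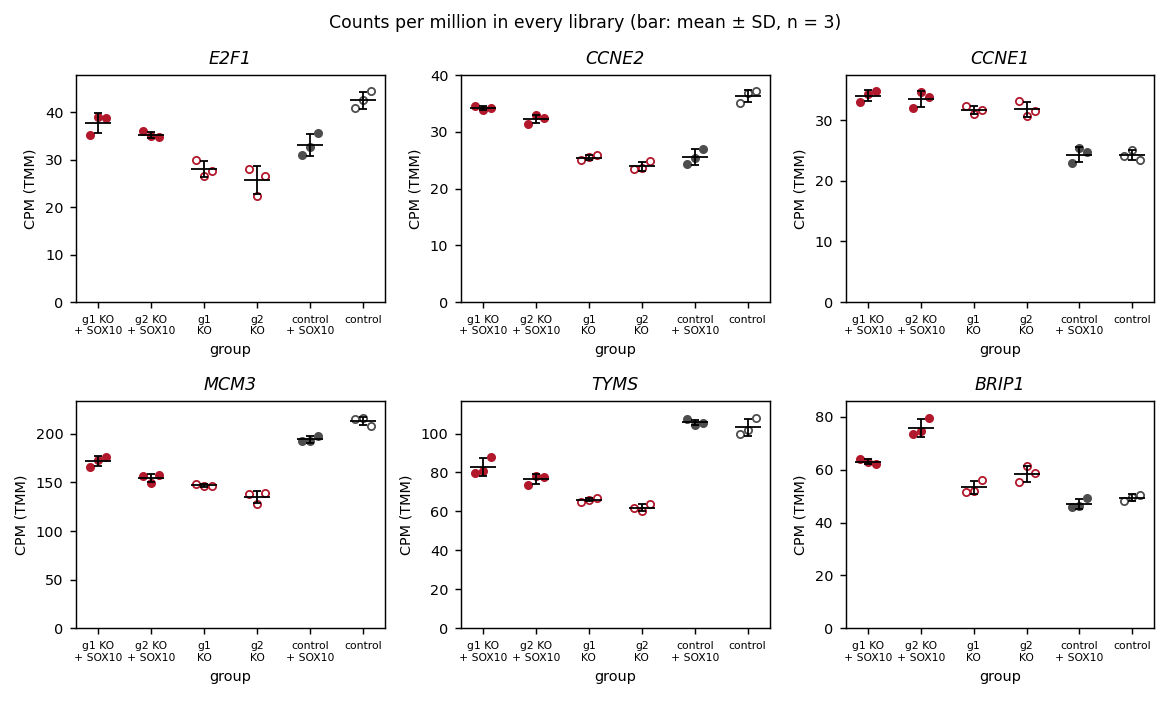
CPM with TMM scaling in each of the 18 libraries for E2F1, CCNE2, CCNE1, MCM3, TYMS and BRIP1; red is knockout and grey control, filled symbols are cells with SOX10 and open symbols cells without, and bars are the mean with its SD. E2F1 and CCNE2 are high in control cells without SOX10 and in knockout cells with it, while CCNE1 is high in all 12 knockout libraries.

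Knockout and control were also compared among SOX10-overexpressing cells. With TMM scaling 15 members were higher and 7 lower in knockout with SOX10 than in control with SOX10, against 28.2% and 26.7% of all genes, and 9 did not pass. The median was 0.05, against 0.02 for all genes. This comparison depends on the scaling, since library-size scaling gave 23 higher and 2 lower, against 43.4% and 14.8%, with medians of 0.20 and 0.16. BRIP1 had 63.9, 63.1 and 62.1 CPM in guide 1 and 73.4, 74.6 and 79.7 CPM in guide 2 with SOX10, against 45.9, 46.1 and 49.4 CPM in control with SOX10, the largest rise at 0.55 (SE 0.036, adjusted p = 7.63e-17). CCNE1 was higher by 0.47 (SE 0.041), CCNE2 and UNG by 0.38 each (SE 0.039 and 0.029) and MCM6 by 0.25 (SE 0.025). TYMS changed by −0.41 (SE 0.031, adjusted p = 4.24e-15) and MCM3 by −0.26 (SE 0.026, adjusted p = 3.27e-11), and these were the 2 members called lower under both scalings. Set beside the comparison without SOX10, with which it shares no library, 10 members were lower in knockout without SOX10 and higher with it. They were CCNE2, CDC6, CHAF1A, E2F1, MCM2, MCM6, POLE, RRM1, SLBP and UNG. A further 7 were lower in both and 3, BRIP1, CCNE1 and GINS1, were higher in both. With library-size scaling these counts were 14, 2 and 5. The difference between the knockout effects with and without SOX10 is the interaction given above, so these counts are another view of it. Shares of all genes for these joint calls are not given here.

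**Figure D5:**
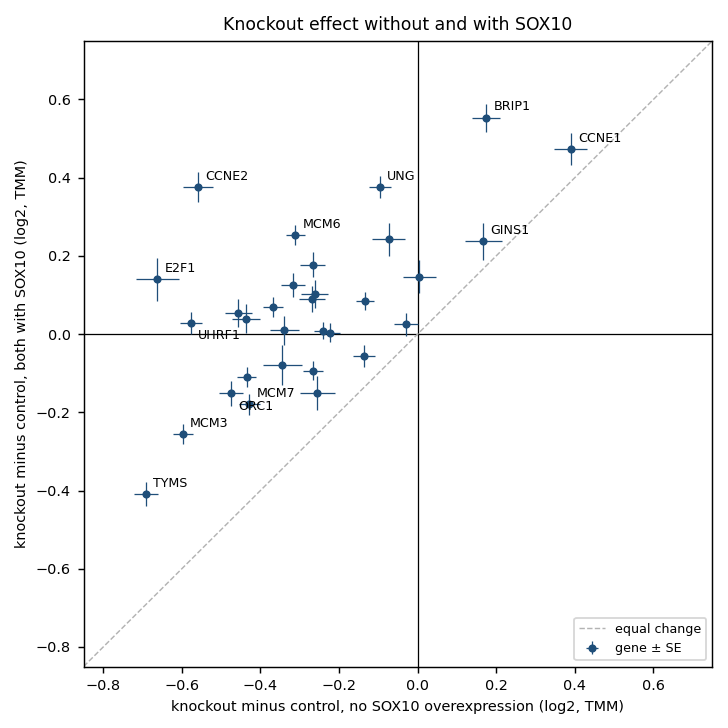
Log2 change of each of the 31 genes in knockout over control cells, with SOX10 overexpression on the vertical axis and without it on the horizontal axis, TMM scaling. All 31 genes lie above the line of equal change, and TYMS and MCM3 are low on both axes while CCNE1 and BRIP1 are high on both.

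Against control cells without SOX10, knockout cells with SOX10 kept 21 members lower and 3 higher, against 27.9% and 30.0% of all genes, with medians of −0.16 for members and 0.01 for all genes. With library-size scaling 11 were lower and 10 higher, against 15.7% and 43.5%, and 1 member, RRM1, was called in opposite directions, at −0.05 with TMM and 0.09 with library-size scaling. UHRF1 at −0.53 (SE 0.028), ORC1 at −0.47 (SE 0.031), MCM7 at −0.46 (SE 0.027), CDT1 at −0.45 (SE 0.051) and PCNA at −0.42 (SE 0.025) were furthest below control with TMM, and all 5 were also called lower with library-size scaling. CDC6 at −0.01 (SE 0.031, adjusted p = 0.81) and POLE at −0.02 (SE 0.032, adjusted p = 0.681) did not pass with TMM and were higher with library-size scaling, at 0.14 and 0.13. E2F1 was at −0.22 (SE 0.054, adjusted p = 0.000814) with TMM and at −0.08, not called, with library-size scaling. CCNE1 and BRIP1 were both at 0.48 (SE 0.042 and 0.036). This comparison shares libraries with the comparisons of knockout against control and of SOX10 in knockout cells.

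The E2F words in the promoters were set beside these changes as a description, with no test. For knockout against control, the median log2 change was −0.34 in the 15 genes with a match and −0.14 in the 13 with a window but no match. For SOX10 in knockout cells it was 0.17 and 0.08, and for SOX10 in control cells −0.28 and −0.14. For the interaction it was 0.36 and 0.22. For knockout against control among SOX10-overexpressing cells the order was the other way, at 0.04 with a match and 0.07 without. The ranges overlapped in each of these comparisons. CCNE2, MCM4 and MCM5 had no window and were in neither group. The genes with a match ran from −0.69 to 0.17 in the knockout, TYMS to GINS1, and those without from −0.47 to 0.39, ORC1 to CCNE1, so neither group was uniform.

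Other genes of the same processes were read from lists chosen with the earlier results known. The shares of all genes to set their counts against are those given above: for the knockout 29.5% lower and 28.6% higher with TMM and 16.8% and 43.3% with library-size scaling, for SOX10 in knockout cells 28.1% each way with TMM and 29.3% and 27.1% with library-size scaling, for SOX10 in control cells 17.2% and 17.3% with TMM, and for the interaction 18.1% higher and 15.1% lower. Of 21 further E2F, retinoblastoma and S phase entry genes, 13 were lower and 4 higher in knockout than in control cells, and with library-size scaling 10 and 8. The list's share was 61.9% lower and 19.0% higher with TMM, and 47.6% and 38.1% with library-size scaling. CCND1, the gene of cyclin D1, changed by −1.51 (SE 0.021) and CDK6, a kinase partner of cyclin D, by −1.07 (SE 0.024), both larger than any change of a member. CDKN1A, the gene of the kinase inhibitor p21, rose by 0.36 (SE 0.027), and CDKN1B, the gene of p27, fell by 0.56 (SE 0.037). With SOX10 in knockout cells CCND1 rose by 0.61 (SE 0.018), CDK6 rose by 0.81 (SE 0.020) and CDKN1A fell by 0.39 (SE 0.022). With SOX10 in control cells CCND1 fell by 0.30 (SE 0.025), CDK6 rose by 0.16 (SE 0.028) and CDKN1A rose by 0.25 (SE 0.031).

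In nucleotide supply, 9 of 16 further genes were lower and 4 higher in the knockout, or 5 and 7 with library-size scaling. The shares higher, 25% and 43.8%, lay near those of all genes, and the shares lower were 56.2% and 31.2%. With SOX10 in the knockout 3 of the 16 were higher and 9 lower under either scaling. Of 17 further genes of S phase repair and checkpoints, 11 were lower and 2 higher in the knockout, or 7 and 6 with library-size scaling, with MSH6 of mismatch repair at −0.51 (SE 0.025) and the kinase WEE1 at −0.59 (SE 0.032). With SOX10 in the knockout 10 of the 17 were higher and 3 lower, and in control cells none higher and 10 lower. The interaction called 11 higher and 1 lower. Of 11 further genes of chromatin assembly, 10 were lower and 1 higher in the knockout, or 6 and 2 with library-size scaling. With SOX10, 7 of the 11 were higher and none lower in knockout cells, and none higher and 7 lower in control cells.

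Further licensing and firing genes were less uniform, with 9 of 17 lower and 4 higher in the knockout, or 6 and 7 with library-size scaling. MCM10 changed by −0.26 (SE 0.026) and TICRR by −0.45 (SE 0.036), whereas CDC7, the kinase that fires origins, rose by 0.28 (SE 0.033). Of 25 further polymerase and fork genes, 11 were lower and 2 higher with TMM, and 4 and 14 with library-size scaling. With library-size scaling its share lower, 16%, lay near that of all genes and 56% were higher, so its balance of calls moved with the scaling, as did that of all genes. A list of 26 G2 and mitosis genes was read for comparison. In the knockout 21 were lower and none higher, or 14 and 7 with library-size scaling, with KIF20A at −0.64 (SE 0.024) and KIF11 at −0.62 (SE 0.023). With SOX10, 22 of these 26 were lower and 1 higher in knockout cells, and 19 lower and 1 higher in control cells. The replication genes that rose with SOX10 in the knockout did so in libraries where most of the G2 and mitosis genes were lower, and the interaction called 4 of the 26 higher and 8 lower.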

How the data were processed

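RNA of 18 A375 libraries was sequenced, 3 in each of 6 groups named by their titles. Column-purified total RNA went into a stranded mRNA kit, per the labels' protocols. The authors deposited unnormalized counts of reads for each gene. HISAT2, HTSeq and build hg38 are named in the submitters' processing notes, with versions, annotation and strand setting not given. Counts were tested in R 4.3.3 with edgeR 4.0.16: filterByExpr by group, TMM library sizes, 1 model with 6 group means, a robust quasi-likelihood F test (two-sided), and Benjamini-Hochberg adjustment over all 21060 genes, called under 0.05. The standard error (SE) is the log2 fold change over the square root of F. The common biological coefficient of variation was 4.02%. The fit was tested on simulated data with known changes. It called 13 of 67 genes changed 1.1-fold, 67 of 67 changed 1.2-fold and 66 of 66 changed 1.5-fold. Of 20023 unchanged genes it called 5. The changed genes were few and went both ways, so the simulation does not bear on the choice of scaling. They were drawn from well-expressed genes only. Every gene was given the same biological coefficient of variation, and no library was made to stand apart. The shares called therefore need not hold for weakly expressed or more variable genes. Depth was 58573910 to 79874237 counts, and 3 counts, the limit a count of 0 allows, were 0.0359 to 0.0493 CPM, covering counting error only. Libraries of a group differed by more than sampling noise (chi-square per degree of freedom 3.54 to 11.8). Coordinates, exon lengths and overlaps came from GENCODE 29 (hg38). Alternatives were library-size and RLE scaling, no filter, a mean CPM filter of 1, DESeq2 1.42.0, only the compared groups, a replicate block, and each library left out. Named genes were all 31 members, up to 8 genes of each further list with the lowest p in knockout against control and no overlap with control libraries, and TADA2B and SOX10. ENOSF1 and INTS8, as overlapping neighbours, and TYR and MLANA, as defining melanocyte markers, were added after their values were seen. The members and lists were chosen with earlier results of these data known.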

Additional observations from a re-analysis of the deposited data

Results flagged for a closer look

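The SOX10 effect differed between knockout and control cells in 25 of the 31 genes, by a test of the difference itself (the interaction term of edgeR's quasi-likelihood test), and in each it was more positive in knockout cells. The log2 difference was 0.93 for CCNE2, 0.80 for E2F1, 0.60 for UHRF1, 0.57 for MCM6 and 0.51 for MCM5. It was 0.48 for GINS2, 0.47 for UNG and 0.44 for each of POLE, CDC6 and SLBP. Values between 0.30 and 0.40 were found for BRIP1 (0.38), MCM2 (0.36), CHAF1A (0.36), CDC45 (0.35), MCM3 (0.34), PCNA (0.33), ORC1 (0.32) and CHAF1B (0.32). The remaining genes were TYMS (0.28), CDT1 (0.26), MCM4 (0.25), MCM7 (0.25), POLA1 (0.23), RRM1 (0.22) and RRM2 (0.17).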

How the results depend on the processing

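Of 9269 values of single genes recomputed under an alternative, 9003 kept their side of the threshold, 121 no longer passed and 120 newly passed. Another 25 turned sign, all 25 with library-size scaling. A turn of sign was counted only where the value passed in the main fit or under the alternative. Values that passed in neither are among the 9003 even where their sign turned. CHAF1B in knockout against control was such a value, at −0.07 with TMM and 0.08 with library-size scaling. For knockout against control the turned values were 0.13 for FEN1, 0.018 for RFC2, 0.023 for RRM1 and 0.060 for UNG. For guide 1 they were 0.10 for FEN1, 0.12 for PRIM1, 0.013 for RFC2, 0.019 for RRM1 and 0.016 for UNG, and for guide 2 0.15 for FEN1, 0.023 for RFC2, 0.027 for RRM1 and 0.10 for UNG. For knockout against control within SOX10-overexpressing cells they were 0.034 for PCNA, 0.088 for RFC2 and 0.050 for RRM2. For knockout with SOX10 against control they were 0.016 for CCNE2, 0.020 for CDC45, 0.14 for CDC6, 0.037 for GINS2, 0.0072 for MCM6, 0.11 for POLA1, 0.13 for POLE, 0.092 for RRM1 and 0.086 for UNG. This scaling does not correct the shift of the median of all genes given above.

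Counts of members moved by over 1.5 times with library-size scaling, with other settings of the fit and with single libraries left out. With library-size scaling, higher members were 5 for knockout, 5 for guide 1 and 6 for guide 2. Higher and lower members were 10 and 11 for knockout with SOX10 against control, and 23 and 2 for knockout within SOX10-overexpressing cells. SOX10 in knockout cells gave 2 lower members with library-size scaling and with DESeq2, and 0 with only the compared groups. SOX10 in guide 2 cells gave 1 lower member with only the compared groups and with the mean CPM filter of 1. For guide 2 against guide 1, DESeq2 gave 2 higher and 2 lower, no filter 2 higher, and only the compared groups 0 higher. With SOX10, 2 were higher with DESeq2, with either filter setting, with library-size scaling and with only the compared groups, and 4 were lower with library-size scaling and 11 with no filter. The causes were not tested. With 1 library left out, members lower and higher were 25 and 3 for knockout, 25 and 1 to 3 for guide 1, 24 to 25 and 3 for guide 2, 21 to 26 and 0 for SOX10 in control cells, 0 to 2 and 18 to 21 for SOX10 in knockout cells, 0 and 15 to 21 for guide 1 and 0 to 3 and 12 to 14 for guide 2 with SOX10 against without, 7 to 8 and 12 to 15 for knockout within SOX10-overexpressing cells, 19 to 21 and 2 to 3 for knockout with SOX10 against control, 0 and 25 to 27 for the interaction, 0 to 1 and 0 to 2 for guide 2 against guide 1, and 3 to 10 and 1 to 2 for that with SOX10.

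Replicate numbers showed no strong pairing of the samples. Correlations of the deviations of same-numbered libraries ran from −0.030 to 0.071, none of 45 over 0.1. Their mean was 0.010, against −0.0050 for libraries of unlike number, and 10 of 18 libraries were closest to their own number. These values cannot tell weak pairing from none. With a replicate block, guide 2 against guide 1 gave 2 higher and 3 lower, and with SOX10 2 higher, while knockout against control stayed at 3 higher and 25 lower and the interaction gave 26 higher. Having 3 libraries per group and changes near 0.1 on the log2 scale limits what can be told apart, and unlike scaling assumptions move every knockout value.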
